A study of Mus musculus with 7 samples.

Results

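Thrombospondins are large secreted glycoproteins of the extracellular matrix, and transforming growth factor β (TGF-β) ligands are growth factors that signal between cells of the ovary. The 10 genes described here are 3 thrombospondins (Thbs1, Thbs2 and Thbs3), a pair of thrombospondin receptors (Cd36 and Cd47), the 3 TGF-β ligands (Tgfb1, Tgfb2 and Tgfb3) and the chains of the TGF-β receptor (Tgfbr1 and Tgfbr2). They were chosen by name, with their values in the comparison of the 2 groups of ovaries already known, so the group differences of these genes are given as a description and not as a test. They are 10 of the 55487 gene rows in the deposited count files, and 10 of the 10 passed the filter on low counts, which left 18779 genes.

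RNA came from whole ovaries of 3 CNTR and 4 PAMH F3 female C57BL/6J mice at diestrus on postnatal day 60, with a library for each. CNTR mice were daughters of dams that received PBS, the vehicle, from E16.5 to E18.5 (embryonic days). PAMH F3 mice descended from dams given human anti-Müllerian hormone (AMH), a hormone of growing follicles, at 0.12 mg/kg/d over the same days, through F1 and F2 females mated with unrelated PAMH males. No AMH was given in the later pregnancies. The sample labels give the injections as subcutaneous and the methods of the study as intraperitoneal. CNTR mice were of generation 1 and PAMH F3 mice of generation 3, so the ancestral treatment and the generation cannot be told apart.

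TGF-β ligands are made as long precursors and secreted in a latent form, in which the propeptide, called the latency-associated peptide, holds the mature ligand. Thrombospondin-1 can release the ligand by contact with the propeptide, and integrins can release it by pulling on an arginine-glycine-aspartate (RGD) motif. Freed ligand brings the type II receptor (Tgfbr2) and the type I receptor (Tgfbr1) together, which phosphorylate Smad2 and Smad3. In the ovary, thrombospondin-1 and its receptor CD36 are best known as inhibitors of blood vessel growth in follicles and corpora lutea.

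The coding sequences behind this contact are shown because they describe the members by motif and not by level. The peptide KRFK of thrombospondin-1 meets the peptide LSKL of the latency-associated peptide. KRFK was encoded by Thbs1 and by none of the other 9 members, and by 0.393% of 21901 coding genes. LSKL was encoded by Tgfb1, Tgfb2 and Tgfb3 and by 2.2% of coding genes. Stretches of the longest coding transcripts of GENCODE M21 (mm10) follow, read 5′ to 3′ on the coding strand, with the codons of the named peptide in capitals and codons counted from the start codon.
Thbs1 KRFK, codons 431 to 434: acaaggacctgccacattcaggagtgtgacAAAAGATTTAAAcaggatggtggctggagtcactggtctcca
Tgfb1 LSKL, codons 54 to 57: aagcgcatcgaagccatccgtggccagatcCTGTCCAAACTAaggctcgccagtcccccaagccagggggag
Tgfb2 LSKL, codons 45 to 48: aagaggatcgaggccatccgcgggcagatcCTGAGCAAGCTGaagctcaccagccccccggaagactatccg

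The Thbs1 stretch runs across the junction of exons 8 and 9 (chr2:118117621-118118196, plus strand, the intron included). Both LSKL stretches shown lie in exon 1, at chr7:25687998-25688069 on the plus strand for Tgfb1 and chr1:186704601-186704672 on the minus strand for Tgfb2. The RGD motif, which integrins hold, was encoded by Tgfb1 and Tgfb3 and not by Tgfb2. It was also encoded by Thbs1 and Thbs2, and by 7.06% of coding genes. In both ligands the stretch shown here spans exons 4 and 5.
Tgfb1 RGD, codons 244 to 246: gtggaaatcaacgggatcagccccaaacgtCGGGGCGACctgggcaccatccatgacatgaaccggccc
Tgfb3 RGD, codons 261 to 263: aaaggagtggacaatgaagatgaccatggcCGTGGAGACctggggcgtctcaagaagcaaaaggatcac

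The Tgfb1 stretch spans chr7:25696983-25697180 on the plus strand and the Tgfb3 stretch chr12:86062135-86063824 on the minus strand, both with the intron included.

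The libraries held between 32158174 and 35485021 counts in genes, and the lowest count of any member in any library was 293. Levels are given below as CPM, that is, counts scaled to a common library size after TMM normalization. Granulosa and oocyte markers were present in every library, with summed levels of 2146 to 3244 CPM and 275 to 447 CPM. Markers of tissue beside the ovary varied widely among libraries. The 6 adipocyte markers summed to 1440, 539 and 419 CPM in CNTR replicates 1 to 3 and to 405, 810, 1080 and 200 CPM in PAMH F3 replicates 1 to 4, and the 5 oviduct epithelium markers summed to 5286, 4062 and 2984 CPM and to 4101, 4595, 6403 and 2563 CPM. In whole tissue, fewer cells of a type and less RNA per cell cannot be told apart.

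Thbs1, whose protein inhibits angiogenesis and releases TGF-β, was the most abundant member. Its level was 443, 558 and 734 CPM in the CNTR replicates and 803, 716, 701 and 933 CPM in the PAMH F3 replicates. The groups overlapped, since CNTR replicate 3 lay above PAMH F3 replicates 2 and 3. The means were 578 ± 147 CPM (SD, n = 3) and 788 ± 106 CPM (SD, n = 4), and the log2 fold change was 0.54 (SE 0.066) with 2 surrogate variables, which are estimates of variation not explained by the group, and 0.45 (SE 0.17) without them. CNTR replicate 1 set much of this size, and without it the log2 fold change was 0.28. In each group, the order of the libraries by Thbs1 was the reverse of their order by the summed adipocyte markers and by the summed oviduct markers given above. These were 2 of 12 marker lists. The summed theca and granulosa markers instead rose with Thbs1 over the CNTR replicates, and did not follow its order in PAMH F3. The part of adipose, oviduct or other tissue in the Thbs1 difference was not tested.

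Thbs2, a second inhibitor of angiogenesis of the same trimeric class, had 24.7, 32.9 and 32.3 CPM in CNTR and 41.0, 33.7, 31.0 and 34.7 CPM in PAMH F3. CNTR replicate 1 was the lowest and PAMH F3 replicate 1 the highest of the 7 libraries, and the groups overlapped. The log2 fold change was 0.30 (SE 0.12) and fell to 0.10 without CNTR replicate 1. Thbs3, of the pentameric class, had 13.2, 17.1 and 13.6 CPM in CNTR and 17.5, 14.997, 14.98 and 11.4 CPM in PAMH F3, a log2 fold change of 0.06 (SE 0.16). Its lowest and highest libraries were both PAMH F3. Thbs3 overlaps Mtx1 on the opposite strand, which had 1117 to 1589 counts, and whether the counting used strand is not given in the sources used here.

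**Figure D1:**
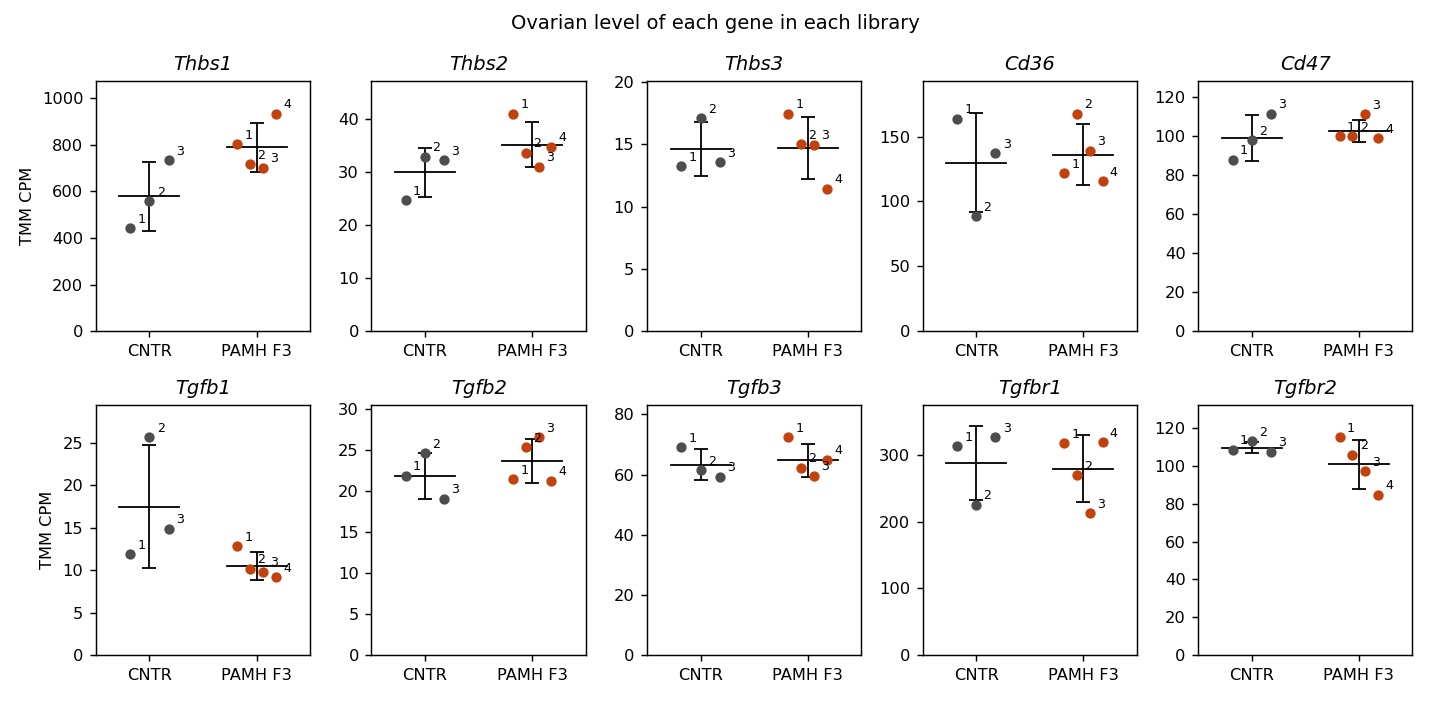
TMM-scaled level (CPM, axes from 0) of the 10 genes in each library, with points numbered by replicate, the group mean as a line and the SD as a bar (CNTR n = 3, PAMH F3 n = 4). The groups overlap for all 10 genes, and the 4 PAMH F3 points for Thbs1 lie between 701 and 933 CPM against 443 to 734 CPM in CNTR.

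Cd36, a receptor for thrombospondins and for fatty acids in endothelium, fat and macrophages, had 164, 88.6 and 137 CPM in CNTR and 122, 168, 139 and 116 CPM in PAMH F3. The PAMH F3 values lay almost wholly inside the CNTR range, and the log2 fold change was -0.02 (SE 0.19). Its sign changed in 9 of 16 alternative settings, with 0.34 without CNTR replicate 1. The 6 endothelial markers were lower in PAMH F3 in 6 of 6 cases, with a median log2 fold change of -0.21. All 6 adipocyte and all 5 red blood cell markers were lower too. Of the endothelial markers 2, Pecam1 (-0.44) and Emcn (-0.21), had an unadjusted p under 0.05, against 7.64% of all genes, while none passed the adjusted threshold. Without surrogate variables neither had an unadjusted p under 0.05, and 1 other endothelial marker did. With surrogate variables, luteal Ptgfr (-0.95) and Prlr (-0.36) and granulosa Foxl2 (-0.25) and Amh (-0.34) also had an unadjusted p under 0.05. Both of their lists held markers of either direction. Of the 6 granulosa markers, 4 were higher and 2 lower in PAMH F3, with a median log2 fold change of 0.05. Of the 4 luteal markers, 1 was higher and 3 lower, with a median of -0.21. Without surrogate variables the medians were -0.14 for granulosa and -0.47 for luteal markers. The part of these cells in the members' values was not tested. Of the 6 platelet markers, 4 were under 1 CPM in every library.

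Cd47, which binds thrombospondin and also tells macrophages not to engulf the cell, had 87.9, 97.9 and 112 CPM in CNTR and 100.1, 100.01, 111 and 98.9 CPM in PAMH F3. It was among the least variable members, with a within-group SD of 0.12 on the log2 scale against 0.27 for Thbs1, and its log2 fold change was 0.11 (SE 0.075).

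Tgfb1, a ligand made by many cell types of the ovary, had 11.9, 25.7 and 14.9 CPM in CNTR and 12.8, 10.1, 9.82 and 9.19 CPM in PAMH F3. CNTR replicate 2 was the highest library, and PAMH F3 replicate 1 lay above CNTR replicate 1. The means were 17.5 ± 7.24 CPM (SD, n = 3) and 10.5 ± 1.61 CPM (SD, n = 4). The log2 fold change was -0.49 (SE 0.21) with surrogate variables and -0.73 (SE 0.25) without them, and it ranged from -0.90 without CNTR replicate 1 to -0.32 without CNTR replicate 2. CNTR replicate 2 was also the library whose levels rose most with GC content, by 0.32 on the log2 scale for each 10 percentage points, against -0.13 to 0.055 in the other libraries. Tgfb1 had a GC content of 62.5%, at the 98.7th percentile of the genes with a GC value. The part of GC content in the Tgfb1 difference was not tested.

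Tgfb2, a ligand without the RGD motif, had 21.9, 24.6 and 19.1 CPM in CNTR and 21.4, 25.3, 26.5 and 21.3 CPM in PAMH F3, for a log2 fold change of 0.15 (SE 0.077). Tgfb3, the third ligand, had 69.1, 61.4 and 59.2 CPM in CNTR and 72.4, 62.2, 59.6 and 64.9 CPM in PAMH F3, for a log2 fold change of -0.02 (SE 0.075). Both had overlapping groups, and the Tgfb3 ranges were close to each other. Tgfb3 overlaps Ttll5 on the opposite strand, which had 1025 to 1277 counts.

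Tgfbr1, the type I receptor kinase that phosphorylates the Smads, had 313, 226 and 327 CPM in CNTR and 318, 270, 213 and 319 CPM in PAMH F3. Tgfbr2, the type II receptor that binds the ligand first, had 109, 113 and 108 CPM in CNTR and 115, 106, 97.3 and 84.9 CPM in PAMH F3. The Tgfbr1 values spread widely inside both groups, whereas the 3 Tgfbr2 values of CNTR were close together and the PAMH F3 values lay on both sides of them. The log2 fold changes were -0.15 (SE 0.070) and -0.13 (SE 0.11).

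Over the 10 members, 5 log2 fold changes were above 0 and 5 below, with a median of 0.02 against 0.0049 over all genes tested. The median size was 0.14, against 0.096 over all genes. With edgeR's quasi-likelihood test and Benjamini-Hochberg adjustment over all genes, 0 of 10 members had an adjusted p of at most 0.05 (adjusted p 0.345 to 0.992), and the background was 0 of 18779 genes (0%). At an unadjusted p under 0.05 there were 2 members, Thbs1 and Thbs2, against a background of 7.64%. Without surrogate variables there were also 2, Thbs1 and Tgfb1, against 3.95%. DESeq2 with the same surrogate variables called 1 member, Thbs1 (adjusted p = 2.44e-10), against 0.661% of genes with an adjusted p. Members whose groups did not overlap numbered 0, against 4.25% of all genes. Since the members were chosen with this contrast known, nothing is read from these counts.

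**Figure D2:**
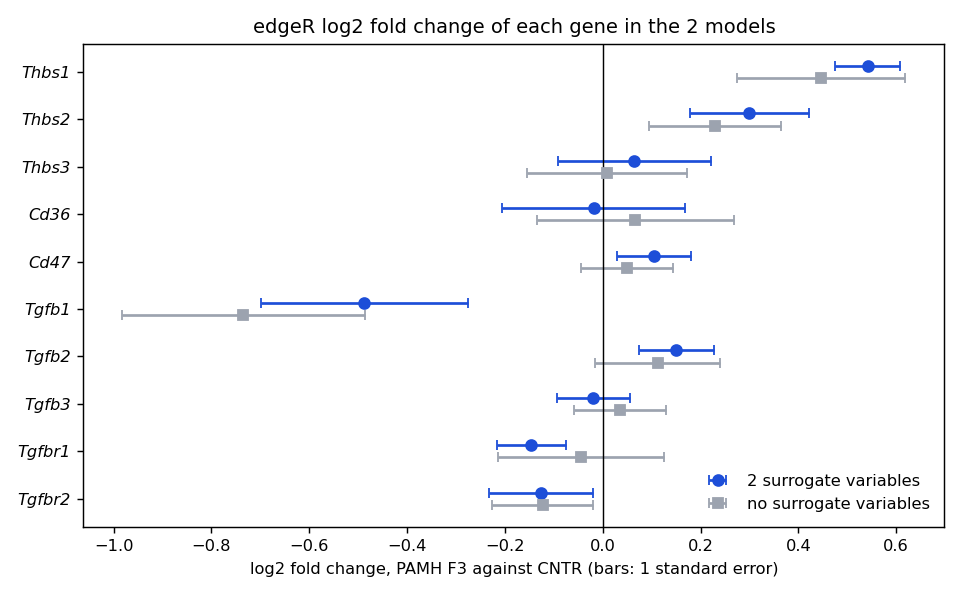
The log2 fold change of PAMH F3 against CNTR for each gene from edgeR, with 2 surrogate variables (circles) and without (squares), where bars are 1 standard error. Thbs1 lies at 0.54 and 0.45 and Tgfb1 at -0.49 and -0.73, and the other 8 genes lie between -0.15 and 0.30.

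The fold changes of Thbs1, Thbs2 and Tgfb1 kept their sign with each library left out in turn. The largest move came from CNTR replicate 1 for each of them, and for Tgfb1 the value without CNTR replicate 2 was also over 1.5 times smaller in size.

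**Figure D3:**
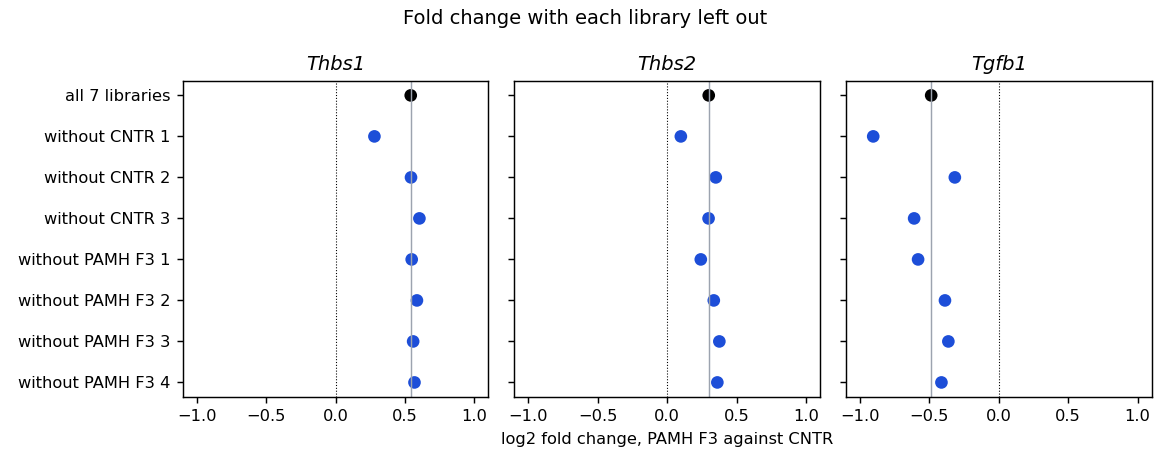
The log2 fold change of Thbs1, Thbs2 and Tgfb1 (edgeR, 2 surrogate variables) with all 7 libraries (black, grey line) and with each library left out. Without CNTR replicate 1, Thbs1 moves from 0.54 to 0.28, Thbs2 from 0.30 to 0.10 and Tgfb1 from -0.49 to -0.90.

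Levels of different genes were compared per kilobase of transcript, which the choice of members did not use. With the median length of each gene's transcripts, the mean over the 7 libraries was 215 CPM per kilobase for Thbs1, 155 for Tgfbr1, 78.2 for Cd47, 49.5 for Cd36, 27.9 for Tgfb2, 19.7 for Thbs3, 19.0 for Tgfb3, 19.3 for Tgfb1, 18.1 for Tgfbr2 and 8.31 for Thbs2, in the order of the mean log2 level. Of the 9 neighbouring pairs in this order, 6 differed (exact two-sided paired permutation test over the 7 libraries, adjusted p 0.0281 to 0.0469 over the 9 pairs). With 7 libraries the smallest exact p is 0.0156, and with 6 it is 0.0312, so leaving out any library other than CNTR replicate 1 left 0 of 9 pairs past the threshold and leaving out CNTR replicate 1 left 6. Thbs1 exceeded Tgfbr1 in 6 of 7 libraries, by a mean of 0.45 on the log2 scale (SD 0.39, n = 7). The 3 neighbouring pairs among Thbs3, Tgfb3, Tgfb1 and Tgfbr2 did not differ beyond the spread of the libraries (exact paired permutation test, adjusted p 0.783, 0.896 and 0.969).

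The order below the first 2 places turned on which transcript gave the length. With the longest coding transcript, Thbs1 (119 CPM per kilobase), Tgfbr1 (49.3) and Cd36 (39.2) led, and Tgfb2 moved from 5th to 10th place with 4.47 CPM per kilobase. In this scaling Tgfb3 was the most abundant ligand in every library, with 52.2% to 69.6% of the summed level of the 3 ligands, whereas with the median length Tgfb2 had the largest share in 6 of 7 libraries, at 35.4% to 50.5% over all 7. Tgfb1 had its largest share in CNTR replicate 2 in both, at 43.2% and 33.9%. Thbs1 exceeded Thbs2 by 20.6 to 32.7 times per kilobase with the median length and by 17.1 to 27.1 times with the longest coding transcript, and Tgfbr1 exceeded Tgfbr2 by 6.30 to 11.9 times and by 2.80 to 5.29 times.

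**Figure D4:**
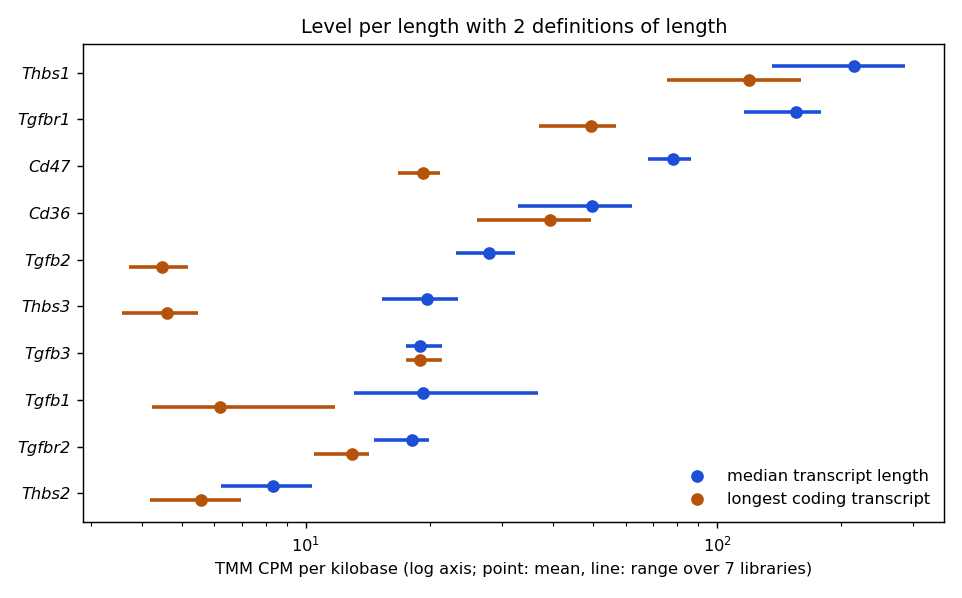
Level of each gene in CPM per kilobase (log axis) with the median transcript length (blue) and the longest coding transcript (brown), where points are means and lines run from the lowest to the highest of the 7 libraries. Thbs1 and Tgfbr1 lead in both scalings, and Tgfb2 falls from 27.9 to 4.47 CPM per kilobase.

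Deviations from the group means were compared with those of Thbs1 among 12688 genes with a mean of at least 5 CPM. The most alike over the 7 libraries were Rab22a (Pearson r = 0.989), Golgb1 (0.988), Ninl (0.985), Olfr1034 (0.985) and Crebbp (0.984). All genes of a library share its depth and tissue makeup, and the tissue markers given above varied among libraries. Rab22a varied far less than Thbs1, between 70.1 and 84.0 CPM. Among the members themselves, r ran from -0.92 between Tgfb2 and Tgfbr1 to 0.88 between Thbs3 and Tgfbr2, and Thbs1 and Thbs2 had 0.66. These values describe 7 libraries, were not tested, and are the extremes of many pairs.

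The rest of the pathway was followed in 6 lists of 67 genes, of which 67 were tested. None passed the adjusted threshold in edgeR (lowest adjusted p 0.365), against 0% of all genes. In DESeq2 with the same surrogate variables 5 did so, against 0.661% of genes with an adjusted p. The lists were chosen with earlier results of these data known, so nothing is read from these counts. At an unadjusted p under 0.05 there were 10 (14.9%, against 7.64% of all genes), 3 higher and 7 lower in PAMH F3, and the median log2 fold change over the lists was -0.04. Of the 10, Timp1, Cdkn1a, Cdkn2b and Fst are genes that the study listed as changed on these same libraries, so they are not independent of it.

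In the list of 22 genes for the latent complex and its activation, 0 were higher and 3 lower at an unadjusted p under 0.05. Over all genes this share was 7.64%, with 704 higher and 731 lower. The median log2 fold change of the list was -0.15. Ltbp1, which ties latent TGF-β to the matrix, had 655, 455 and 397 CPM in CNTR and 521, 262, 203 and 327 CPM in PAMH F3, with overlapping groups and a log2 fold change of -0.84 (SE 0.27). Ltbp4, a binding protein of the same family, had -0.36 (SE 0.14) and Furin, the protease that cuts the propeptide, -0.30 (SE 0.12). Without surrogate variables Ltbp1 had -0.61 (edgeR, unadjusted p = 0.0669), and 5 genes of the list, Ltbp4 and Furin among them, were under 0.05. CNTR replicate 2 was the highest library for Ltbp4 and Furin, whose GC contents were 62.2% and 58.3%, and not for Ltbp1. The part of GC content in these values was not tested.

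Among the 16 target genes, 1 was higher and 4 lower at an unadjusted p under 0.05, against 7.64% of all genes in both directions together. Fst, which encodes follistatin, the activin-binding protein, had 189, 166 and 278 CPM in CNTR and 256, 318, 301 and 379 CPM in PAMH F3, with overlapping groups and a log2 fold change of 0.61 (SE 0.14). Timp1, an inhibitor of matrix metalloproteinases, had -1.27 (SE 0.23), and the cell cycle inhibitors Cdkn1a and Cdkn2b had -0.83 (SE 0.13) and -0.79 (SE 0.15), with groups that did not overlap for all 3. They were the 3 of 67 pathway genes without overlap, a share near the 4.25% of all genes. Ccn2, a matricellular target, had 0.24 (SE 0.16) with surrogate variables and -0.11 without them, so its direction was not settled.

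The co-receptor list (5 genes) and the list of transducers (4 genes) held 0 genes at an unadjusted p under 0.05, against 7.64% of all genes. Tgfbr3, the co-receptor betaglycan, had a log2 fold change of -0.06 (SE 0.051). Of the 10 negative regulators, 1 reached an unadjusted p under 0.05, the repressor Tgif1 at 0.19 (SE 0.071). Without surrogate variables Tgif1 had 0.22 (edgeR, unadjusted p = 0.110). Smad7, the inhibitory Smad, had 0.11 (SE 0.12) with them. Of the 10 other thrombospondins and partners, 1 reached an unadjusted p under 0.05 with surrogate variables. This was Comp, the cartilage thrombospondin, with 1.30, 16.3 and 24.0 CPM in CNTR and 5.61, 16.8, 10.3 and 10.7 CPM in PAMH F3. The fitted log2 fold change was 1.25 (SE 0.34) with surrogate variables and -0.35 without them, with CNTR replicate 1 far below the rest. Thbs4, the remaining pentameric thrombospondin, had 156, 127 and 192 CPM in CNTR and 180, 197, 149 and 212 CPM in PAMH F3, for a log2 fold change of 0.19 (SE 0.085).

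**Figure D5:**
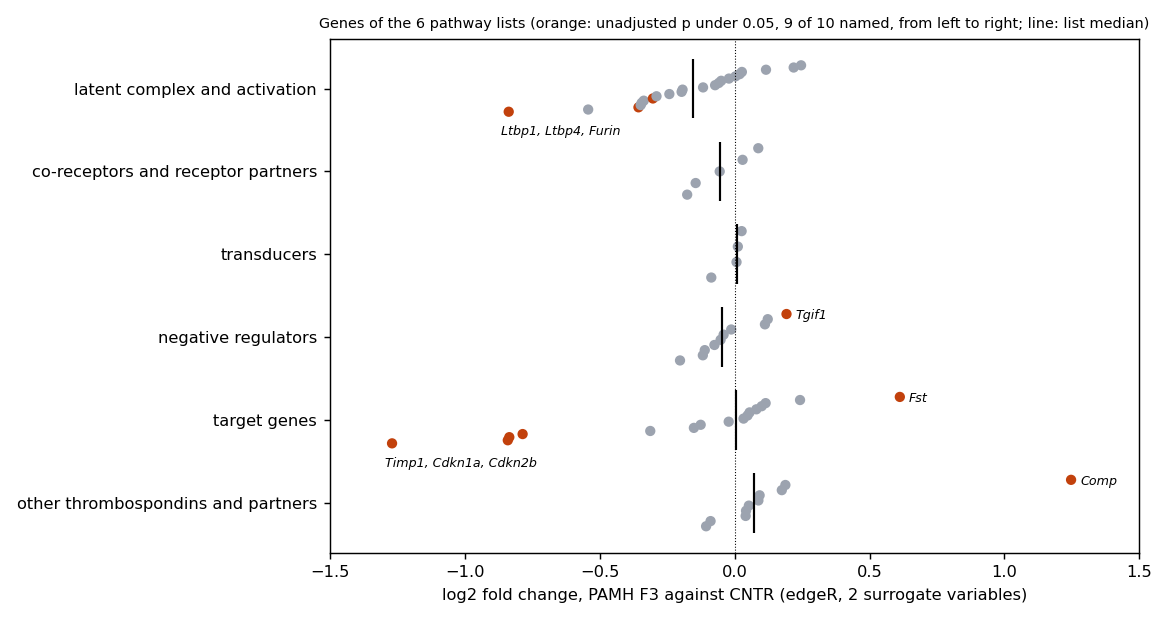
The log2 fold change of PAMH F3 against CNTR (edgeR, 2 surrogate variables) for 67 genes in 6 lists, with genes at an unadjusted p under 0.05 in orange (9 of the 10 named), and the list median as a black line. The 10 orange genes include 3 of the latent complex list, all below 0, and none of the co-receptors or transducers. Over all genes, 7.64% had an unadjusted p under 0.05.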

How the data were processed

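Ovarian poly(A) RNA of 3 CNTR and 4 PAMH F3 mice was made into stranded libraries. Per the labels and the study's methods, the authors mapped reads to mm10 with STAR 2.5.3a and counted genes with HTSeq 0.6.1p1 in union mode. They deposited raw counts per gene for each library, with 5 summary lines that were left out here. The Ensembl release and the strand setting are not given in the sources used here. The p-values of the group comparison set a difference against the spread between mice. With surrogate variables, estimated from the same libraries, this is only the spread left after they are fitted. The p-values of the level order rest on differences between genes within each library.

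Of 55487 identifiers, 55394 matched GENCODE M21. Groups were compared with edgeR 4.0.16 (quasi-likelihood F test, TMM factors over all gene rows, filterByExpr with a minimum count of 10) in R 4.3.3, with 2 surrogate variables from svaseq in sva 3.50.0 and 3 residual degrees of freedom. Adjustment was by Benjamini-Hochberg over 18779 genes, with a threshold of 0.05. DESeq2 1.42.0 was an alternative. On simulated data, edgeR was tested with and without 2 surrogate variables, and DESeq2 only without them. The simulated counts held no variation of the kind that surrogate variables estimate. Fold changes with surrogate variables need not equal the ratio of the CPM means. The standard errors of the log2 fold changes are those implied by the F statistic of the edgeR test, and not a separate estimate.

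The members and lists were chosen with earlier results of these data known. Genes named were the 10 members, per list those at an unadjusted p under 0.05 (or the 4 with the smallest), 6 pathway genes set by name (Thbs4, Comp, Ltbp1, Tgfbr3, Smad7 and Ccn2) and the 5 most like Thbs1. A further gene that this rule names, counted in its list, and 1 coding stretch are not reported here. Cell type markers were fixed lists, and Pecam1, Emcn, Ptgfr, Prlr, Foxl2, Amh, Mtx1 and Ttll5 were named after their values were seen. Likeness used log2 CPM with a prior count of 2. Replicate numbers did not pair the libraries (correlations of deviations 0.096, 0.097 and -0.25).

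The alternatives changed the number of surrogate variables, the tool, the normalization, the filter, the replicate block, the libraries and the transcript length. Leaving out a library together with the surrogate variables was added after seeing the data.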

Additional observations from a re-analysis of the deposited data

Results flagged for a closer look

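Among 77 genes (the members and the pathway lists), 3 had a PAMH F3 library far from the other 3 of its group, where chance gives about 1 in 20 groups, so the number is no more than chance would give. PAMH F3 replicate 3 was the library in each case. Cd47 had 111 CPM there, against 98.9 to 100.1 CPM in the others. Bmp1, a protease that cuts matrix precursors, had 133 CPM, against 147 to 149 CPM. Itga6, an integrin chain, had 127.6 CPM, against 138 to 139 CPM.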

How the results depend on the processing

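The number of genes past the adjusted threshold was 0 with edgeR and 2 surrogate variables, 102 with DESeq2 and the same surrogate variables, 8 with DESeq2 without them, 8 with no filter on low counts and 0 to 39 with each library left out. The highest counts came from leaving out CNTR replicate 1 (39) and the first PAMH F3 replicate (37), where fewer libraries remain. For the 67 pathway genes these counts were 0, 5, 1, 1 and 0 to 3. At an unadjusted p under 0.05 the 10 pathway genes became 16 with no filter, 6 with the replicate block in place of the surrogate variables and 7 to 20 with each library left out (17 and 20 without those 2 replicates). The cause of these moves was not tested. The other settings stayed within 1.5 times of these counts. The block called 0 genes at the adjusted threshold. At an unadjusted p under 0.05 it left 0 of the 2 members counted without it, with unadjusted p = 0.0696 for Thbs1, 0.219 for Thbs2 and 0.052 for Tgfb1.

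Of the members, Thbs1 passed the adjusted threshold in 2 of 16 planned settings, DESeq2 with surrogate variables and edgeR with no filter (adjusted p = 0.0234), and its log2 fold change stayed between 0.28 and 0.60. The neighbouring pairs that differed in level numbered 6, and 0 to 6 with each library left out, which lowers the power of the exact test. The lowest of the 5 correlations with Thbs1 was 0.984, and 0.457 with the group means kept. With 3 and 4 mice per group, small differences were not detectable.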
